A study of Homo sapiens with 6 samples.

Results

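MESD, CDK14 and 8 of their partners in Wnt signalling were followed in T24, a human urinary bladder carcinoma cell line, after knockdown of USP43, a deubiquitinating enzyme. The 10 genes were found by symbol among 63241 genes in the deposited table, and each matched 1 row. MESD and CDK14 were chosen because they rose in these same libraries, so their increase is given as a description, with no test. CCNY, LRP5, LRP6, CTNNB1, AXIN1, AXIN2, DKK1 and TCF7L2 were named for their role beside them. The siUSP43 group holds 3 libraries of T24 cells transfected with a small interfering RNA against USP43 (genotype label USP43 knockdown), and the siNC group 3 libraries with a control small interfering RNA (genotype label WT). All 6 were grown in the same medium with fetal bovine serum and carry the same batch label. The labels give neither the time after transfection nor the duplex sequences. Whether replicates came from separate cultures is not stated either, and the p-values below therefore reflect the spread among these libraries, which may be technical.

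In canonical Wnt signalling a secreted Wnt protein brings a Frizzled receptor together with LRP5 or LRP6. The paired receptors draw Dishevelled and AXIN to the membrane and stall the complex of AXIN, APC, glycogen synthase kinase 3 and casein kinase 1 that otherwise marks beta-catenin for destruction. Beta-catenin, the product of CTNNB1, then acts with TCF and LEF factors on target genes, among them AXIN2 and DKK1, which feed back as inhibitors. MESD is a chaperone of the endoplasmic reticulum that folds LRP5 and LRP6 on their way to the cell surface. CDK14 is a PFTAIRE kinase that works with the membrane-bound cyclin CCNY and phosphorylates the inner tail of LRP6.

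Total gene counts ran from 21430574 to 25577200 per library. USP43 itself fell to 1.02, 0.67 and 0.80 FPKM (a fragment level scaled to exon length and library size) in siUSP43, against 2.36, 2.09 and 2.08 FPKM in siNC. The fitted change was -1.40 on the log2 scale (SE 0.14; edgeR quasi-likelihood). USP43 averaged 0.83 FPKM in siUSP43 and reached the filter of 1 FPKM over all libraries only through siNC, so no p from that fit is given. In a two-sided exact permutation test p was 0.1, the smallest that 3 against 3 allows. Of 13 urothelial and epithelial markers, the keratins KRT7, KRT8, KRT18 and KRT19 and PPARG averaged at least 1 FPKM, and so did all 4 mesenchymal markers. The summed FPKM of the 13 was 468.9 to 532.9 in siUSP43 and 526.3 to 543.6 in siNC, and that of the mesenchymal markers 503.5 to 527.2 in siUSP43 and 672.0 to 674.4 in siNC. FN1, the fibronectin gene, averaged 77.7 FPKM in siUSP43 and 213.5 FPKM in siNC. The epithelial markers went both ways. KRT7 averaged 183.8 FPKM in siUSP43 and 235.9 FPKM in siNC, KRT19 9.37 and 12.03 FPKM, and GATA3 0.26 and 0.43 FPKM. In the same order PPARG averaged 2.74 and 1.92 FPKM, EPCAM 1.24 and 0.59 FPKM, and KRT8 96.9 and 88.0 FPKM. KRT18 averaged 215.8 FPKM in siUSP43 and 197.5 FPKM in siNC, with overlapping values. The part of these shifts in the results below was not tested. The uroplakins UPK1A, UPK1B, UPK2 and UPK3A, which mark differentiated urothelium, lay between 0 and 0.16 FPKM in every library, and CDH1 at most at 0.02 FPKM. None of the 4 leukocyte or 3 endothelial markers averaged 1 FPKM, with sums of at most 0.61 FPKM in siUSP43 and 1.11 FPKM in siNC.

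Sequence before a transcript start is shown for the 2 genes chosen for their increase and for DKK1, the most abundant of the 10 and a known beta-catenin target. Each line below gives the 250 bases before a RefSeq transcript start on GRCh38.p14, 5′ to 3′ on the strand of the gene. For MESD this is chr15:80989820-80990069, minus strand, and capitals mark the GC box GGGCGG on either strand, a word picked after the window was read. For CDK14 it is chr7:90709148-90709397, plus strand, and for DKK1 it is chr10:52314031-52314280, plus strand. The starts of MESD and DKK1 lie 9 and 0 bases from the 5′ end of the gene as the deposited table places it, but that of CDK14 lies 242974 bases inside the gene, so its line precedes an internal start. In these last 2 lines capitals mark the TCF and LEF words, which are CTTTGAT or CTTTGTT or CTTTGAA on either strand.
MESD: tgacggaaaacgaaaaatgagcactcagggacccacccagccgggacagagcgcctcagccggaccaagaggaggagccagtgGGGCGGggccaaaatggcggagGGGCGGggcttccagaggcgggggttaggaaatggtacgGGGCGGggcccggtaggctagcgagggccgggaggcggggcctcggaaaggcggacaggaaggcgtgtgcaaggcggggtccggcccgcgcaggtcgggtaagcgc
CDK14: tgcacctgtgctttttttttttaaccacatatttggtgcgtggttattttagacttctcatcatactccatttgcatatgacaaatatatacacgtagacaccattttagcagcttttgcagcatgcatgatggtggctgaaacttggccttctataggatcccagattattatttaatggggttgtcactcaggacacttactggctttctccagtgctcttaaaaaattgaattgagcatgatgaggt
DKK1: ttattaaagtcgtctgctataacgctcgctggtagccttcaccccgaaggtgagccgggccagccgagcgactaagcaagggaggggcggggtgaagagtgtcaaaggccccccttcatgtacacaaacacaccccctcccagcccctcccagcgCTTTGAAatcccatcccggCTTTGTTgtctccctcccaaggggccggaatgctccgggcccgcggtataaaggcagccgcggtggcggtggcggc
The MESD window of 300 bases, which adds 50 bases after the start, was 70.3% G or C, against a median of 58.7% over 35116 RefSeq promoter windows of that length. It held 3 GC boxes, a word found in 44.95% of all windows. GC boxes were also in windows of AXIN1 (8), LRP5 (3), CTNNB1 (3) and DKK1 (1), in 1 of the 2 windows of CCNY (5) and in 1 of the 3 of TCF7L2 (5). That CCNY window and the CTNNB1 window precede starts 89484 and 4764 bases inside the gene. Both RefSeq windows of CDK14 precede internal starts and held none, at 38.7% and 41.3% G or C, which says nothing of the DNA at the 5′ end of the gene. RefSeq windows were found for 8 of the 10 genes, and LRP6 and AXIN2 had none in the table used. Of the 3 TCF and LEF words, DKK1 held 1 CTTTGTT and 1 CTTTGAA, and 1 of the 3 TCF7L2 windows held 1 CTTTGTT. That TCF7L2 window precedes a start 176386 bases inside the gene, and the window at its 5′ end held none of the words. No window of MESD, CDK14, CCNY, LRP5, CTNNB1 or AXIN1 held any of them, while 11.5% of all windows held at least 1. Each word was counted on its own, so matches may overlap in part. They are matches of letters only, and binding was not measured here.

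MESD stood at 14.43, 14.22 and 14.34 FPKM in the siUSP43 libraries, against 4.34, 3.70 and 3.65 FPKM in the siNC libraries. The groups lay far apart, and the coefficient of variation of MESD was 0.735% in siUSP43 and 9.87% in siNC. Over all tested genes the siUSP43 libraries were not the more alike. The count difference between 2 libraries (chi-square per degree of freedom) was 3.98, 8.62 and 14.91 for siUSP43 pairs and 2.28, 5.49 and 4.60 for siNC pairs. In the count fit MESD was 1.86 higher on the log2 scale (SE 0.07), or 3.64-fold, and stayed between 1.82 and 1.94 when each library was left out in turn. The difference was 1.65 in a fit to log2(FPKM + 1). MESD (ENSG00000117899) lies on GRCh38 chromosome 15, 80946289 to 80989828, minus strand. CEMIP, on the other strand, shares 224 exonic bases with it in GENCODE release 29 and was at most 0.06 FPKM in any library. LRPAP1, another secretory chaperone of the LDL receptor family, averaged 6.82 ± 0.505 FPKM in siUSP43 and 6.39 ± 0.150 FPKM in siNC (SD, n = 3 each) and did not pass the test. Bulk RNA cannot tell a change in every cell from a larger change in some of them.

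CDK14 stood at 4.16, 4.0 and 4.25 FPKM in siUSP43, against 1.06, 1.01 and 0.90 FPKM in siNC. Here too no siUSP43 library came near any siNC library. The difference in the count fit was 2.05 on the log2 scale (SE 0.08), or 4.13-fold, and ran from 1.99 to 2.09 over the fits that left out 1 library. With 1 added to FPKM before the log it was 1.37, the added 1 being about as large as the siNC level itself. The mean in siNC was 0.990 FPKM, so CDK14 reached the filter of 1 FPKM over all libraries only through siUSP43. CDK14 (ENSG00000058091, chromosome 7, 90466424 to 91210590, plus strand) shares 201 exonic bases with CLDN12, which lies upstream on the same strand. CLDN12, a claudin gene, was at 12.94, 11.41 and 13.67 FPKM in siUSP43 and at 9.94, 10.28 and 8.90 FPKM in siNC (log2 fold change 0.37, SE 0.07; edgeR quasi-likelihood, Benjamini-Hochberg adjusted p = 9.18e-04). The part of shared reads in the CDK14 counts was not tested.

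**Figure D1:**
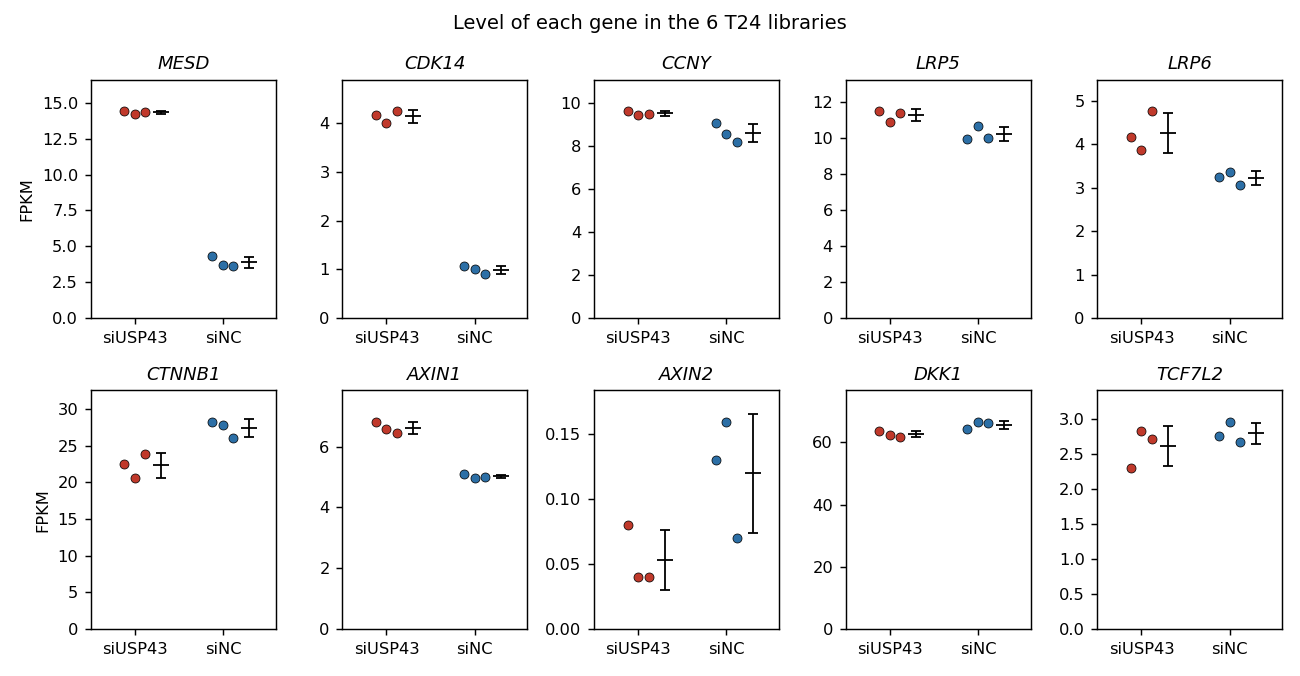
FPKM of the 10 genes in each library, siUSP43 (red) and siNC (blue), with the mean and SD of 3 libraries beside the points; each panel has its own axis from 0. MESD and CDK14, chosen for their increase, stand 3.64 and 4.13 times higher in siUSP43 by the count fit. The other panels show smaller steps or overlapping points.

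CCNY, the cyclin that anchors CDK14 at the membrane, changed little. It stood at 9.63, 9.43 and 9.47 FPKM in siUSP43, against 9.05, 8.57 and 8.19 FPKM in siNC. All siUSP43 values lay above all siNC values, yet a log2 fold change of 0.13 (SE 0.05) did not pass (edgeR quasi-likelihood, Benjamini-Hochberg adjusted p = 0.0608). The call was sensitive to the analysis, and CCNY passed in 4 of 14 alternatives. CCNY (ENSG00000108100, chromosome 10, 35247025 to 35572669, plus strand) contains CCNY-AS1 on the other strand, a gene at 2.24 FPKM in siUSP43 and 1.86 FPKM in siNC that shares no exonic base with it. The ratio of CCNY to CDK14 FPKM was 2.32, 2.36 and 2.23 in siUSP43, against 8.54, 8.49 and 9.10 in siNC. CDK14, the lower term of that ratio, was chosen for its increase.

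CDK14 belongs to a group of kinases that also holds CDK15 and the PCTAIRE kinases CDK16, CDK17 and CDK18. The share of CDK14 in the summed FPKM of these kinases was 15.0 ± 0.502% in siUSP43 and 3.97 ± 0.237% in siNC (SD, n = 3 each). As CDK14 was chosen for its increase, that choice favoured a higher share. CDK16, which CCNY also activates, was the most abundant and held 53.5 ± 2.81% in siUSP43 and 56.7 ± 1.39% in siNC. Of the 5 genes of this list other than CDK14 and CCNY, 3 were tested, 0 rose and 2 fell, where 28.0% of all tested genes rose and 28.1% fell. CCNYL1, the closest relative of CCNY, was at 7.85 ± 0.315 FPKM in siUSP43 and 8.65 ± 0.161 FPKM in siNC (SD, n = 3 each). That is a log2 fold change of -0.16 (SE 0.06; edgeR quasi-likelihood, Benjamini-Hochberg adjusted p = 0.0375), a call lost in 8 of 14 alternatives. CDK16, at 0.05 on the log2 scale, did not pass.

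Of the 8 partners, 7 were tested, since AXIN2 was below the filter. LRP6 and AXIN1 rose and CTNNB1 fell, while LRP5, CCNY, DKK1 and TCF7L2 did not pass. Over all 11417 tested genes 28.0% rose and 28.1% fell, and these shares are given only beside the counts of 2 and 1. The partners were named with earlier results of these data known, so nothing is read from their number.

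LRP6, the co-receptor that CDK14 and CCNY phosphorylate, stood at 4.17, 3.86 and 4.77 FPKM in siUSP43, against 3.25, 3.37 and 3.06 FPKM in siNC. The groups did not overlap, and siUSP43 replicate 3 was the highest. LRP6 rose by 0.39 on the log2 scale (SE 0.08; edgeR quasi-likelihood, Benjamini-Hochberg adjusted p = 0.00127), and by 0.30 to 0.45 over the fits that left out 1 library. LRP6 (ENSG00000070018) lies on chromosome 12, 12116025 to 12267044, minus strand.

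LRP5, its close relative, stood at 11.51, 10.89 and 11.38 FPKM in siUSP43, against 9.96, 10.65 and 10.03 FPKM in siNC. The lowest siUSP43 value and the highest siNC value were only 0.24 FPKM apart. A log2 fold change of 0.12 (SE 0.05) did not pass (edgeR quasi-likelihood, Benjamini-Hochberg adjusted p = 0.0548), though it did in 5 of 14 alternatives. LRP5 (ENSG00000162337, chromosome 11, 68312591 to 68449275, plus strand) was the more abundant of the co-receptors in every library. The ratio of LRP6 to LRP5 FPKM was 0.362, 0.355 and 0.419 in siUSP43, against 0.326, 0.316 and 0.305 in siNC. MESD, which folds both, reached 0.920, 0.964 and 0.888 times their summed FPKM in siUSP43, against 0.329, 0.264 and 0.279 times in siNC. As MESD was chosen for its increase, the direction of this shift was favoured by that choice.

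Of the 10 other LDL receptor family genes 6 were tested, and 2 rose and 3 fell, beside 28.0% and 28.1% of all tested genes. LRP8, a reelin receptor, was at -0.62 on the log2 scale (SE 0.07), with 1.33 ± 0.111 FPKM in siUSP43 and 2.03 ± 0.0851 FPKM in siNC (SD, n = 3 each; edgeR quasi-likelihood, Benjamini-Hochberg adjusted p = 1.64e-05). VLDLR, another reelin receptor, was at -0.38 on that scale (SE 0.07) and reached the filter only through siNC, so no p is given. LRP10, the most abundant of the family, averaged 24.7 FPKM in siUSP43 and 26.3 FPKM in siNC and did not pass, except in 1 of 14 alternatives. LRP6 thus rose while LRP8, of the same receptor family, fell.

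CTNNB1, the beta-catenin gene, stood at 22.52, 20.57 and 23.92 FPKM in siUSP43, against 28.29, 27.86 and 26.06 FPKM in siNC. Every siUSP43 value lay below every siNC value. CTNNB1 fell by 0.31 on the log2 scale (SE 0.06; edgeR quasi-likelihood, Benjamini-Hochberg adjusted p = 5.57e-04), to 0.806 times the siNC level, and the call held in 14 of 14 alternatives. CTNNB1 (ENSG00000168036, chromosome 3, 41194741 to 41260096, plus strand) overlaps ULK4 on the other strand, which was at most 0.58 FPKM and shares no exonic base with it. Beta-catenin is controlled mainly through its protein, which was not analysed here.

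AXIN1, the scaffold of the destruction complex, stood at 6.83, 6.58 and 6.46 FPKM in siUSP43, against 5.09, 4.98 and 5.01 FPKM in siNC. The siNC values were tight, and all siUSP43 values lay well above them. AXIN1 rose by 0.38 on the log2 scale (SE 0.05; edgeR quasi-likelihood, Benjamini-Hochberg adjusted p = 1.07e-04), and this call too held in 14 of 14 alternatives. AXIN1 (ENSG00000103126) lies on chromosome 16, 287440 to 352723, minus strand.

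AXIN2, the inducible relative of AXIN1, was close to undetected. It had 13, 5 and 6 counts in siUSP43, against 19, 25 and 11 counts in siNC, which is 0.08, 0.04 and 0.04 FPKM against 0.13, 0.16 and 0.07 FPKM. The groups overlapped in FPKM, and siUSP43 replicate 1 stood above siNC replicate 3. AXIN2 (ENSG00000168646, chromosome 17, 65528563 to 65561648, minus strand) was left out of the test by the filter. Without a filter it stood at -1.17 on the log2 scale (SE 0.42; edgeR quasi-likelihood, Benjamini-Hochberg adjusted p = 0.0264 over 33934 genes), from summed counts of 24 in siUSP43 and 55 in siNC. The p-values of that fit are not on the footing of the main fit. For CCND1, at -0.90 in both, the adjusted p was 3.79e-78 without a filter and 1.61e-08 with it (edgeR quasi-likelihood). AXIN2 reached 0.00799 ± 0.00322 times the FPKM of AXIN1 in siUSP43 and 0.0239 ± 0.00919 times in siNC (SD, n = 3 each).

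DKK1, a secreted inhibitor that binds LRP5 and LRP6, was the most abundant of the 10 genes in every library. It stood at 63.71, 62.28 and 61.87 FPKM in siUSP43, against 64.31, 66.74 and 66.29 FPKM in siNC. The values of the groups did not overlap but came within 0.60 FPKM of each other. A log2 fold change of -0.09 (SE 0.04) did not pass (edgeR quasi-likelihood, Benjamini-Hochberg adjusted p = 0.1), and it passed in 0 of 14 alternatives. DKK1 (ENSG00000107984, chromosome 10, 52314281 to 52318042, plus strand) shares 212 exonic bases with PRKG1-AS1 on the other strand, which was at most 0.30 FPKM.

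TCF7L2, a TCF factor that carries beta-catenin to its targets, stood at 2.29, 2.83 and 2.71 FPKM in siUSP43, against 2.75, 2.96 and 2.67 FPKM in siNC. The groups overlapped. The fitted difference was -0.12 on the log2 scale (SE 0.09; edgeR quasi-likelihood, Benjamini-Hochberg adjusted p = 0.276), and it passed in 0 of 13 alternatives. TCF7L2 (ENSG00000148737) lies on chromosome 10, 112950247 to 113167678, plus strand.

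In FPKM, which allows genes to be compared per length, the order in siUSP43 was DKK1, CTNNB1, MESD, LRP5, CCNY, AXIN1, LRP6, CDK14, TCF7L2 and AXIN2. The LRP6 and CDK14 values overlapped there, and all other neighbours stood apart. In siNC the order was DKK1, CTNNB1, LRP5, CCNY, AXIN1, MESD, LRP6, TCF7L2, CDK14 and AXIN2, and no neighbours overlapped. MESD thus stood above LRP5 in siUSP43 and below AXIN1 in siNC, and CDK14 stood above TCF7L2 in siUSP43 and below it in siNC. MESD and CDK14 were chosen for their increase.

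**Figure D2:**
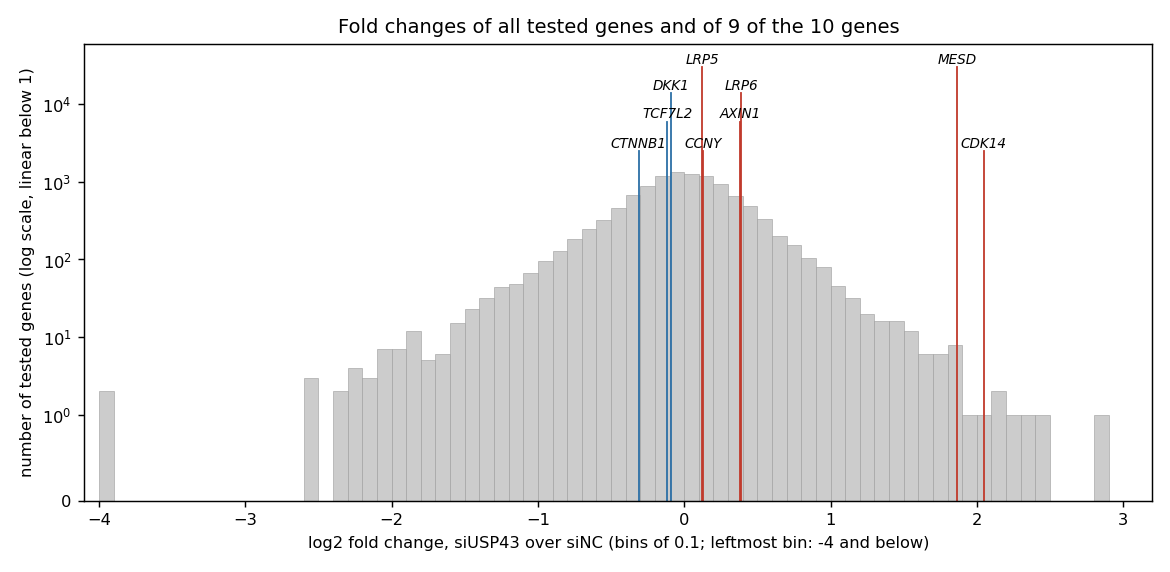
Number of tested genes by log2 fold change, siUSP43 over siNC, in bins of 0.1 on a log count axis, with lines at 9 of the 10 genes (AXIN2 was below the filter); line heights only separate the names. MESD at 1.86 and CDK14 at 2.05 lie in the right tail, at ranks 11 and 8 of 11417. They were chosen for their increase, so a place there was given beforehand. The other 7 lie between -0.31 and 0.39.

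The genes whose pattern over the 6 libraries came closest to MESD and CDK14 were sought by the root mean square difference of log2 CPM (counts scaled to library size), each gene taken relative to its own siNC mean. For MESD the nearest was NOLC1, which encodes a nucleolar phosphoprotein, at 0.08 on the log2 scale. NOLC1 stood at 143.98, 146.49 and 150.84 FPKM in siUSP43, against 42.47, 41.11 and 40.68 FPKM in siNC. For CDK14 the nearest was ENSG00000255375, a gene on chromosome 11 without a symbol in the table, at 0.11, followed by MESD at 0.14. The other 3 places among the 3 nearest to each were also taken by genes without a symbol. This measure mainly ranks genes by the size of their increase, and it says nothing of a shared role.

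Across the rest of the pathway, 12 lists by role held 121 further genes, of which 68 were tested. Of these, 21 rose and 27 fell, or 30.9% and 39.7%, beside 28.0% and 28.1% of all tested genes. Their median log2 fold change was -0.03, against -0.01 over all tested genes. Of the 68, 8 averaged at least 1 FPKM in only 1 of the groups and so entered the test through the group where they were high. They are VLDLR, PORCN, FZD8, LEF1, TLE3 and BAMBI, high in siNC, and ROR1 and CELSR3, high in siUSP43, and where they are named they have no p. They are counted in the lists by role, apart from that for Wnt secretion. Among the other 60, 19 rose and 21 fell. The genes named here are those with the largest changes in each list that passed with groups apart, and the most abundant.

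**Figure D3:**
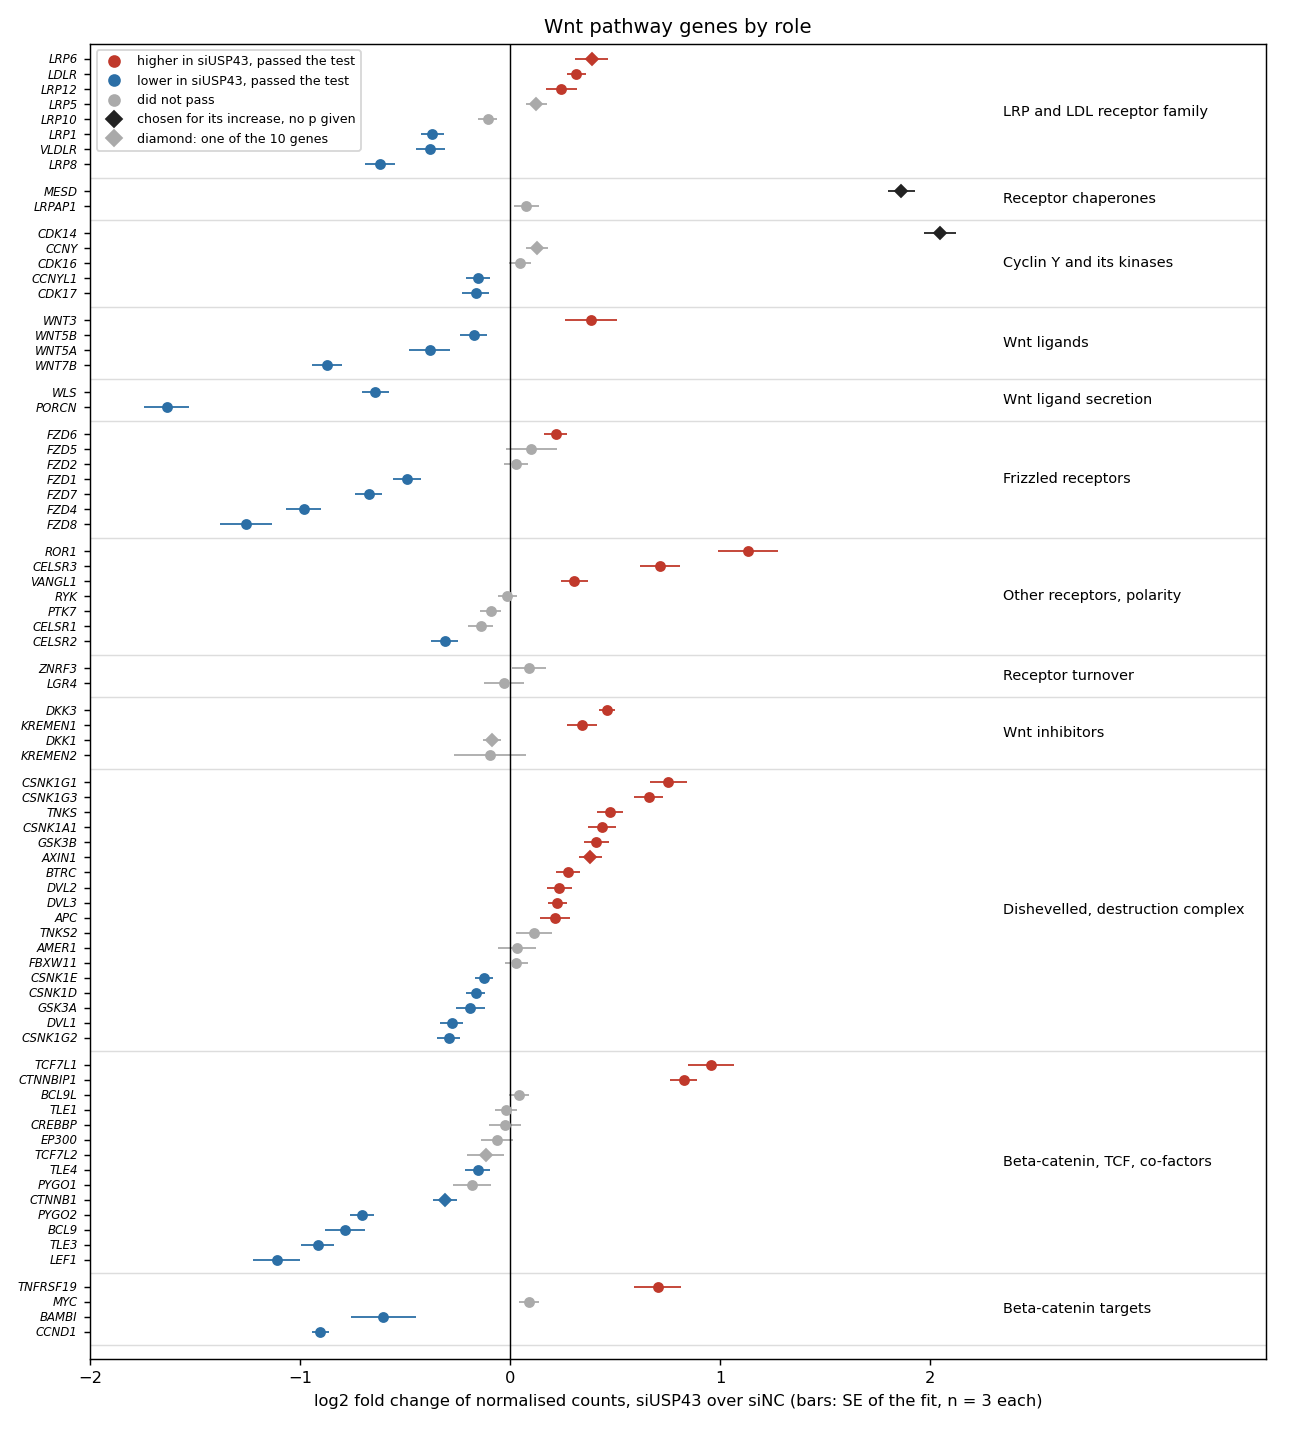
Log2 fold change of counts, siUSP43 over siNC, with its SE, for all tested genes of the 12 lists, grouped by role and each drawn once; diamonds are the 10 genes. MESD and CDK14, drawn in black, have no p given, as they were chosen by this contrast; PORCN at -1.64 and FZD8 at -1.26 are the lowest points, and ROR1 at 1.13 is the highest of the others.

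The list for Wnt secretion held PORCN and WLS. Of these only WLS averaged at least 1 FPKM in both groups, and it fell, as did 28.1% of all tested genes. PORCN, the enzyme that attaches the lipid that Wnt proteins need, stood at 0.63, 0.78 and 0.75 FPKM in siUSP43, against 2.17, 2.21 and 2.27 FPKM in siNC. Its groups lay far apart, at a log2 fold change of -1.64 (SE 0.11), but it reached the filter only through siNC. WLS, the carrier that brings Wnt proteins to the surface, was at 7.82 ± 0.301 FPKM in siUSP43 and 12.1 ± 0.748 FPKM in siNC (SD, n = 3 each). It fell by 0.64 on the log2 scale (SE 0.06; edgeR quasi-likelihood, Benjamini-Hochberg adjusted p = 5.79e-06).

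Among 19 Wnt ligand genes 4 were tested, and 1 rose and 3 fell, beside 28.0% and 28.1% of all tested genes. WNT7B stood at 5.12, 5.36 and 4.60 FPKM in siUSP43, against 8.58, 9.31 and 9.40 FPKM in siNC (log2 fold change -0.87, SE 0.07; edgeR quasi-likelihood, Benjamini-Hochberg adjusted p = 1.38e-06). WNT5A, a ligand known mostly for signalling without beta-catenin, was at -0.38 (edgeR quasi-likelihood, Benjamini-Hochberg adjusted p = 0.00541). WNT3 rose by 0.38 on the log2 scale (SE 0.12; edgeR quasi-likelihood, Benjamini-Hochberg adjusted p = 0.02), but not without siNC replicate 3 (0.29) or siUSP43 replicate 1 (0.34). WNT5B was the most abundant ligand, at 16.7 ± 1.52 FPKM in siUSP43 and 18.7 ± 0.300 FPKM in siNC (SD, n = 3 each). Its log2 fold change of -0.17 passed (edgeR quasi-likelihood, Benjamini-Hochberg adjusted p = 0.0388) but was lost in 8 of 14 alternatives. The summed FPKM of all ligand genes was 26.14, 26.96 and 23.62 in siUSP43, against 31.73, 31.65 and 31.81 in siNC.

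Frizzled receptors moved unequally. Of 10 genes 7 were tested, and 1 rose and 4 fell, beside 28.0% and 28.1% of all tested genes. FZD9 and FZD10 had 0 counts in every library, which allows up to 3 counts in each. FZD8 had 0.85, 0.67 and 0.85 FPKM in siUSP43, against 1.82, 1.89 and 1.93 FPKM in siNC (log2 fold change -1.26, SE 0.12), and reached the filter only through siNC. FZD4 and FZD7 had log2 fold changes of -0.98 and -0.67, with SEs of 0.08 and 0.06 (edgeR quasi-likelihood, Benjamini-Hochberg adjusted p = 1.60e-06 and 4.36e-06). FZD6, by far the most abundant, was at 38.06, 36.33 and 41.66 FPKM in siUSP43, against 34.30, 32.79 and 31.69 FPKM in siNC, and rose by 0.22 on the log2 scale (edgeR quasi-likelihood, Benjamini-Hochberg adjusted p = 0.00581). The summed Frizzled FPKM was 56.6 ± 2.82 in siUSP43 and 55.4 ± 1.29 in siNC (SD, n = 3 each), which overlapped, while the sum without FZD6 was 17.9 ± 0.331 in siUSP43 and 22.4 ± 0.285 in siNC. FZD6 made up 68.3 ± 1.44% of the sum in siUSP43 and 59.4 ± 1.05% in siNC.

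Of 11 genes of other Wnt receptors and of planar polarity, the orientation of cells within a sheet, 7 were tested. In this list 3 rose and 1 fell, beside 28.0% and 28.1% of all tested genes. ROR1, a receptor tyrosine kinase for WNT5A, had 1.67, 1.19 and 1.55 FPKM in siUSP43, against 0.66, 0.75 and 0.58 FPKM in siNC (log2 fold change 1.13, SE 0.14), and reached the filter only through siUSP43. CELSR3, an atypical cadherin that also did so only through siUSP43, was at 0.71 on the log2 scale. CELSR2, its relative, fell by 0.31 (edgeR quasi-likelihood, Benjamini-Hochberg adjusted p = 0.00155). RYK, a Wnt receptor with a kinase-like domain, was the most abundant, at 12.6 FPKM in siUSP43 and 12.5 FPKM in siNC, and did not pass. Of the 9 receptor turnover and R-spondin genes 2 were tested and neither passed. LGR4, an R-spondin receptor, averaged 4.96 ± 0.727 FPKM in siUSP43 and 5.01 ± 0.386 FPKM in siNC (SD, n = 3 each), and RNF43, RSPO1 and RSPO4 had 0 counts in every library.

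Secreted and surface inhibitors other than DKK1 numbered 15, of which 3 were tested and 2 rose, beside 28.0% of all tested genes. DKK3, a divergent relative of DKK1, stood at 42.66, 42.54 and 42.43 FPKM in siUSP43, against 30.73, 30.58 and 30.33 FPKM in siNC. The values within each group were nearly equal, and DKK3 rose by 0.46 on the log2 scale (SE 0.04; edgeR quasi-likelihood, Benjamini-Hochberg adjusted p = 1.42e-06). KREMEN1, a receptor that DKK1 uses to remove LRP6 from the surface, rose by 0.34 on the log2 scale (SE 0.07; edgeR quasi-likelihood, Benjamini-Hochberg adjusted p = 0.00147). The ratio of DKK1 to DKK3 FPKM was 1.47 ± 0.0189 in siUSP43 and 2.15 ± 0.0527 in siNC (SD, n = 3 each).

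Dishevelled and destruction complex genes other than AXIN1 and AXIN2 were all 17 tested. Of these 9 rose and 5 fell, beside 28.0% and 28.1% of all tested genes. CSNK1G1 and CSNK1G3 encode membrane-bound casein kinases 1 that phosphorylate LRP6. CSNK1G3 stood at 13.76, 12.71 and 15.54 FPKM in siUSP43, against 8.96, 8.76 and 8.58 FPKM in siNC (log2 fold change 0.66, SE 0.07; edgeR quasi-likelihood, Benjamini-Hochberg adjusted p = 1.02e-05). CSNK1G1 rose by 0.75 on that scale (SE 0.09; edgeR quasi-likelihood, Benjamini-Hochberg adjusted p = 1.82e-05), while the third gene of that family, CSNK1G2, named because it went the other way, was at -0.29 (SE 0.05; edgeR quasi-likelihood, Benjamini-Hochberg adjusted p = 6.83e-04). TNKS, a tankyrase that marks AXIN proteins for destruction, rose by 0.47 on the log2 scale (SE 0.06; edgeR quasi-likelihood, Benjamini-Hochberg adjusted p = 5.48e-05). TNKS2, the most abundant of the list, was at 30.9 ± 4.45 FPKM in siUSP43 and 28.3 ± 2.11 FPKM in siNC (SD, n = 3 each) and did not pass, except without siUSP43 replicate 2 (log2 fold change 0.21, adjusted p = 0.0294 by edgeR).

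Of 14 nuclear partners of the pathway other than CTNNB1 and TCF7L2, 12 were tested. Here 2 rose and 5 fell, beside 28.0% and 28.1% of all tested genes. LEF1, a factor that pairs with beta-catenin, had 0.93, 0.74 and 0.78 FPKM in siUSP43, against 1.74, 1.78 and 1.74 FPKM in siNC (log2 fold change -1.11, SE 0.11), and reached the filter only through siNC. TCF7L1, known mostly as a repressor, rose, at 3.43, 2.93 and 2.76 FPKM in siUSP43, against 1.59, 1.41 and 1.66 FPKM in siNC (log2 fold change 0.95, SE 0.11; edgeR quasi-likelihood, Benjamini-Hochberg adjusted p = 1.88e-05). TLE3, a Groucho co-repressor that also did so only through siNC, was at -0.92 on the log2 scale. The summed FPKM of the 4 TCF and LEF genes was 7.09 ± 0.277 in siUSP43 and 6.91 ± 0.116 in siNC (SD, n = 3 each), and the values overlapped. Within that sum TCF7L1 held 42.8 ± 3.19% in siUSP43 and 22.5 ± 2.23% in siNC. LEF1 held 11.5 ± 1.02% in siUSP43 and 25.4 ± 0.177% in siNC, and TCF7L2 held 36.9 ± 5.19% in siUSP43 and 40.4 ± 1.49% in siNC.

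**Figure D4:**
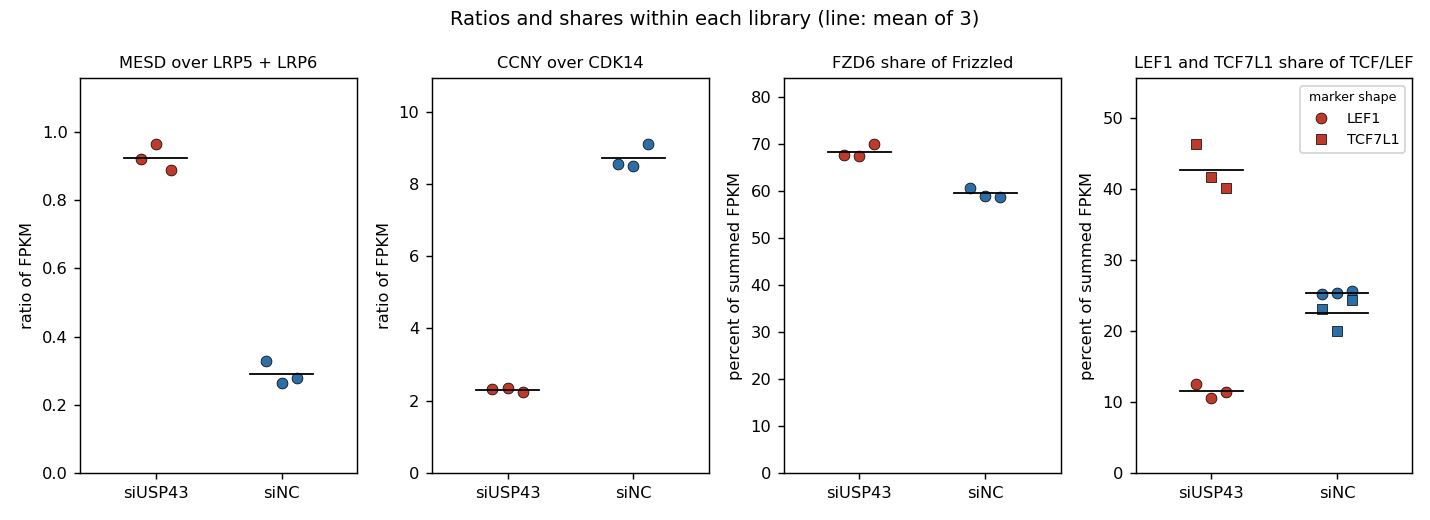
Ratios of FPKM (left panels) and percent of summed FPKM (right panels) within each library, siUSP43 (red) and siNC (blue), with a line at the mean of 3. MESD over LRP5 plus LRP6 is 0.888 to 0.964 in siUSP43 and 0.264 to 0.329 in siNC. CCNY over CDK14 is 2.23 to 2.36 in siUSP43 and 8.49 to 9.10 in siNC. MESD and CDK14 were chosen for their increase, which favoured the direction of both shifts.

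Genes that beta-catenin is known to switch on moved both ways. Of 15 such genes other than AXIN2 and DKK1, 6 were tested, and 1 rose and 3 fell, beside 28.0% and 28.1% of all tested genes. Of the 3, LEF1, counted above as well, and BAMBI reached the filter only through siNC. CCND1, the cyclin D1 gene and the most abundant of the list, stood at 112.97, 111.31 and 119.03 FPKM in siUSP43, against 214.31, 212.10 and 208.84 FPKM in siNC (log2 fold change -0.90, SE 0.04; edgeR quasi-likelihood, Benjamini-Hochberg adjusted p = 1.61e-08). No siUSP43 library came close to the siNC level. TNFRSF19, a gene of the TNF receptor superfamily, rose by 0.70 on the log2 scale (SE 0.11; edgeR quasi-likelihood, Benjamini-Hochberg adjusted p = 2.29e-04). It averaged 1.79 ± 0.151 FPKM in siUSP43 and 1.09 ± 0.101 FPKM in siNC (SD, n = 3 each). Of the targets held to be most specific for the pathway, AXIN2, NKD1, NOTUM and LGR5 were each at most 0.16 FPKM in any library. RNF43 had 0 counts in all. The known targets ZNRF3 and SP5 were detected. ZNRF3 stood at 2.17, 2.05 and 2.41 FPKM in siUSP43, against 2.14, 2.06 and 1.97 FPKM in siNC. Its log2 fold change of 0.09 (SE 0.08) did not pass (edgeR quasi-likelihood, Benjamini-Hochberg adjusted p = 0.367). SP5 stood at 1.32, 1.18 and 0.8 FPKM in siUSP43, against 0.84, 0.96 and 0.59 FPKM in siNC. The SP5 groups overlapped, and SP5 was below the filter.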

How the data were processed

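RNA sequencing covered 6 T24 libraries, 3 siUSP43 and 3 siNC. The authors deposited raw read counts and FPKM per gene, per the file headers. The submitters' processing notes name cutadapt 2.6, HISAT2 2.2.1 and the build GRCh38. The counter, the annotation release, strand use and the treatment of multiply mapped reads are not given in the sources used here. A gene and an overlapping gene therefore cannot be fully told apart.

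Group and replicate number came from the sample titles. The 11417 genes that averaged 1 FPKM or more across the 6 libraries were tested with edgeR 4.0.16 in R 4.3.3, by its quasi-likelihood test on counts with TMM scaling and group as the only term. A gene rose or fell at a Benjamini-Hochberg adjusted p under 0.05 over all tested genes, two-sided. Fold changes are siUSP43 over siNC. The code was tested on simulated counts.

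Alternatives were RLE size factors, library totals alone, no filter, a filter of 5 FPKM, DESeq2 1.42.0, limma 3.58.1 on log2(FPKM + 1) and log2(FPKM + 0.1), a replicate block, and each library left out. The members and gene lists were chosen with earlier results of these data known. Named genes are the members, USP43, the 3 largest changes past the test with groups apart in each list, the most abundant gene of each list, and the 3 genes nearest in pattern to MESD and CDK14. A few others were named after their values were seen (LRPAP1, CSNK1G2, ZNRF3, SP5, cell markers, genes at or near 0 and overlapping genes). Floors of 3 counts and the precision of counts cover counting error only. Exonic overlaps are from GENCODE release 29 and promoters from RefSeq on GRCh38.p14.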

Additional observations from a re-analysis of the deposited data

How the results depend on the processing

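The log2 fold change of USP43 was negative in the 13 of 14 alternatives that tested it, and -1.57 to -1.27 when 1 library was left out. With limma on log2(FPKM + 1) it was -0.80, but the added 1 exceeds the siUSP43 mean of 0.83 FPKM. No call is given for USP43, which reached the filter of 1 FPKM only through siNC. USP43 was below the filter of 5 FPKM. With that filter, which tests 6245 genes, 1889 genes rose and 1892 fell, and of the further Wnt genes 12 rose and 14 fell. Of the partners 1 rose there, since LRP6 was below that filter. Without a filter 2 partners fell, CTNNB1 and AXIN2. With limma on log2(FPKM + 1) or log2(FPKM + 0.1) 4 partners rose, LRP5 and CCNY joining LRP6 and AXIN1. When 1 library was left out, 2718 to 3273 genes rose and 2710 to 3275 fell, 19 to 22 further Wnt genes rose and 21 to 27 fell, 2 to 3 partners rose and 1 fell each time. The third partner was CCNY without siNC replicate 1 or siUSP43 replicate 3, and LRP5 without siUSP43 replicate 2. The cause of these shifts was not tested beyond the change in tested genes. No value of a named gene changed sign past the threshold.

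The labels do not say whether libraries with the same replicate number were paired. Deviations from the group means correlated at -0.01, -0.13 and -0.26 between such libraries, so no shared shift was seen. With 3 libraries in each group these values cannot settle whether they were paired. With a replicate block 2775 genes rose and 2841 fell, 21 and 21 further Wnt genes rose and fell, and 2 partners rose and 1 fell. Among named genes the block ended the calls of CCNYL1 and WNT5B. Among the 10 genes AXIN2 had the fewest reads, 5 to 25 counts per library.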
